A study of Mus musculus with 20 samples.

Results

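The genes described here mark the neurons and glia of the gut wall: Elavl4, Uchl1, Ret, Chat, Nos1, Vip, S100b, and Sox10. They were chosen by name as enteric neuron and glia genes, with earlier results of these data known. Of these 8 genes, 7 were found among the 12701 genes of the proximal colon (PC) count table and all 7 passed into the tests. Chat, the enzyme that makes acetylcholine, was not analysed here. RNA came from a segment of PC wall of 20 C57BL/6 mice. From weaning, every mouse ate the Total Western Diet (TWD), which copies American nutrient intake, for 6 weeks. For 3 more weeks, diet groups received the TWD with raw potato starch, called resistant potato starch (RPS) here, at 0, 2, 5, or 10%. The libraries come from 5 mice per diet, which may be only some of the mice fed. The 0% RPS group, fed the TWD alone, is the control. Each library is 1 mouse, with no pooling. The labels do not give sex or age in weeks.

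The gut holds its own nervous system, with nerve cell bodies grouped in a plexus between the muscle layers and another in the submucosa. Its motor neurons excite the muscle with acetylcholine and tachykinins and relax it with nitric oxide and vasoactive intestinal peptide (VIP), and its glia surround the nerve cells and their fibres. Neurons and glia both arise from neural crest cells that need the receptor Ret and the transcription factor Sox10 to colonise the gut. In RNA from a whole segment of gut wall, a lower level can mean fewer such cells in the piece or less RNA per cell, and these cannot be told apart.

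Libraries held 20581013 to 35083751 counts over all genes. Normalised counts are raw counts divided by a library size factor, and the lowest raw count of any of the 7 genes in any library was 119, for S100b. Markers of every other part of the gut wall were present in all diets, with no measured marker at 0 counts in any group. The summed normalised count of the 12 epithelial markers (Epcam, Cdh1, Muc2, and others) had a median of 1001880 on 0% RPS (range 909836 to 1072890) and 1345570 on 10% RPS (range 1106610 to 1624250). That of the 10 smooth muscle markers (Myh11, Acta2, Des, and others) had a median of 225108 on 0% RPS (range 159577 to 337173) and 199346 on 10% RPS (range 165540 to 266899). Replicate 2 of the 0% RPS group had the highest smooth muscle score of the 20 libraries, 0.79, where the score is the mean log2 level of these 10 markers, centred on the mean over libraries. The label numbers of 3 libraries, 2% RPS replicate 5 and 10% RPS replicates 4 and 5, are apart from the run of the remaining 17, and results are given with and without them where they move.

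The DNA just upstream of the transcription start is shown for Vip, since it differed from the other neuronal genes in how its level varied between mice (described further on). The 250 bases before the GENCODE canonical start were read from the mouse genome (build GRCm39) in the direction of transcription, 5′ to 3′. Capitals mark TATAAA, which occurred at 125 and 115 bases before the start, and the cyclic AMP response element core TGACGTC at 47 bases before it.
Vip, chr10:5588936-5589185, plus strand: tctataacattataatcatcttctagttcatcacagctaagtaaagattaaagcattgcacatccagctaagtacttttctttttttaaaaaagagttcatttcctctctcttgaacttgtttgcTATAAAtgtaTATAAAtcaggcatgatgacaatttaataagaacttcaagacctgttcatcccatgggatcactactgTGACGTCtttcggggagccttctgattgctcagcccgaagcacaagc
Of 11761 promoters of the same length, with each motif searched on both strands, 3.62% held TGACGTC, 7.48% held TATAAA, 35.6% held CCAAT, and 13.5% held ACAAAG, the core bound by SOX factors. The sequence of Vip holds neither of the latter, and none of its matches overlapped another. Among the 7 genes TATAAA also occurred for Uchl1, at 145 bases before its start on the opposite strand. CCAAT occurred for Elavl4, Ret, Nos1, and S100b, and TGACGTC for Vip alone. Whether any match bears on how the levels varied was not tested. A match is only a match of letters, and RefSeq, on an older build, sets the start of Vip somewhat further downstream, so the distances depend on the gene model.

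The genes were first compared with each other, per kilobase of the canonical transcript. Uchl1, a ubiquitin hydrolase found throughout neurons, was highest with 659 ± 124 normalised counts per kilobase (SD, n = 20), followed by Vip, the relaxing neuropeptide, with 448 ± 131. Ret, the receptor for glial cell line-derived neurotrophic factor, had 136 ± 19.9 and Nos1, the neuronal nitric oxide synthase, 118 ± 22.03. The glial genes S100b, a calcium-binding protein, and Sox10, the transcription factor, had 109 ± 19.3 and 99.6 ± 17.7. Elavl4, a neuronal RNA-binding protein, was lowest with 81.5 ± 12.002. Vip was above Ret in 20 of 20 libraries with no overlap of their ranges, while the ranges of all other neighbours in this order overlapped over the 20 libraries, although Ret also exceeded Nos1 in every library. The place of Vip depends on the gene model, since with all annotated exons merged its length is 8693 bases in place of 1567 and its level 80.7 per kilobase. The order of Ret and Nos1 depends on it too, since with merged exons their means were 105.2 and 105.9 per kilobase. By canonical length, Uchl1 stood at percentile 77.4 of all genes of the table and Elavl4 at percentile 19.6.

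The position of each gene bears on which reads it could be given. In GENCODE M39 on GRCm39, Elavl4 lies at chr4:110060810-110209142 on the minus strand, Uchl1 at chr5:66832748-66845009 on the plus strand, and Nos1 at chr5:117918971-118096905 on the plus strand. Exons of these 3 genes overlap genes on the opposite strand (Gm33070 for Elavl4, Uchl1os and Gm73557 for Uchl1, Gm26995 and Gm30360 for Nos1). Whether counting used strand is not given in the sources used here, so reads of these genes and their antisense partners may not be separated. Ret (chr6:118128706-118174769, minus strand), Vip (chr10:5589186-5599956, plus strand), S100b (chr10:76085090-76097159, plus strand), and Sox10 (chr15:79039108-79049469, minus strand) have no such overlap.

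Each starch level was then compared with the TWD alone to find whether RPS altered these genes. None of the 7 passed the test. DESeq2 was fitted on all genes, and a call needed at least a 1.5-fold change with an adjusted p no higher than 0.05. By this rule 0 of 7 genes changed at 2% RPS (0.0239% of all genes tested were called), 0 at 5% RPS (0.438%), and 0 at 10% RPS (0.9%). edgeR also called 0 of 7 in each (0%, 0.0566%, and 0.323% of all genes). An unadjusted p under 0.05 was found for 0 of 7 at 2% RPS (8.7% of all genes), 0 at 5% (16.6%), and 1 at 10% (18.8%), with DESeq2 and with edgeR alike. The 95% intervals of all 7 genes excluded an increase of 1.5-fold at each starch level, the highest upper bound being 1.42-fold for Sox10 at 5% RPS. A decrease of 1.5-fold lay inside the interval of Uchl1 and Nos1 at 10% RPS and of Vip at all 3 levels, and outside the others.

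**Figure D1:**
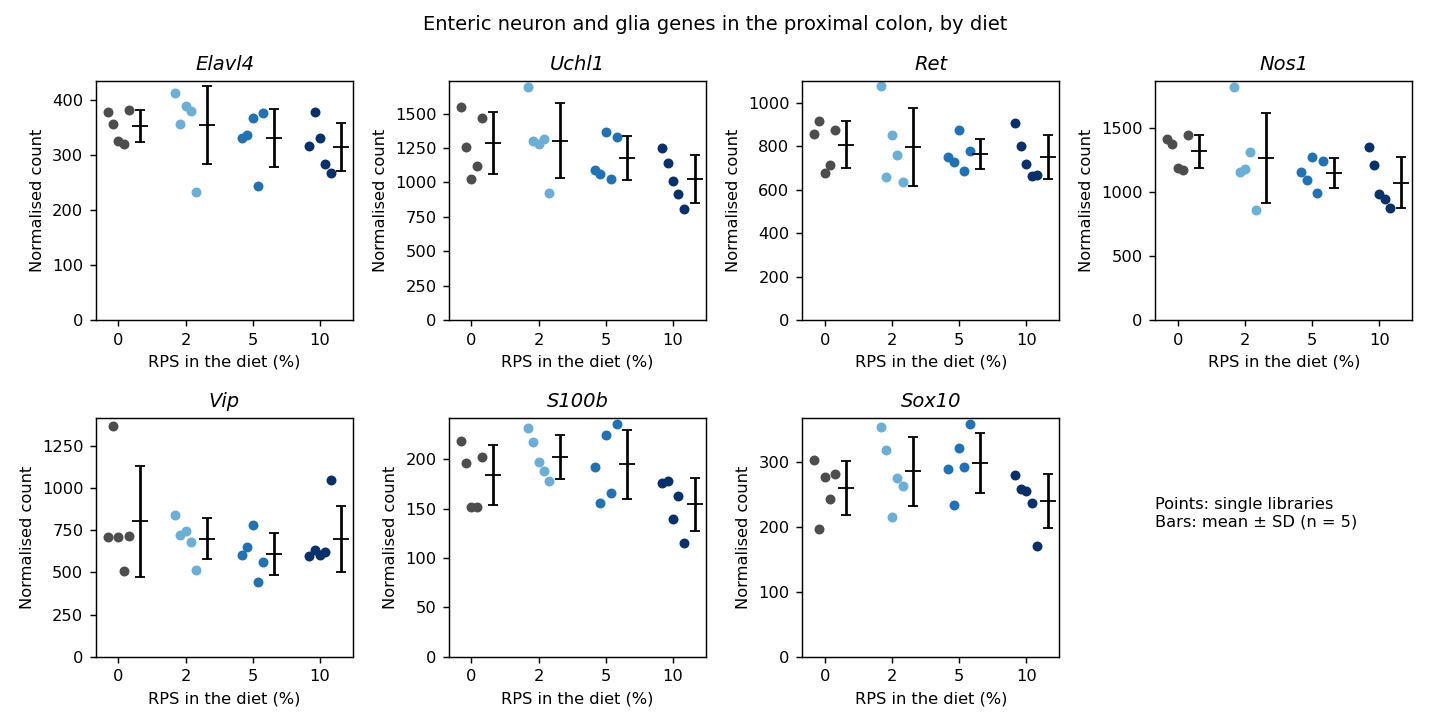
Normalised counts (vertical axes, from 0) of the 7 genes in each of the 20 libraries, by percentage of RPS in the diet. Points are single mice and bars give the mean ± SD of 5; the diets overlap for every gene, and Vip has a single high library on 0% RPS (1369) and on 10% RPS (1049).

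Normalised counts of Uchl1 were 1550.1, 1256, 1025, 1122, and 1471 in the 5 mice on 0% RPS. They were 1693, 1300.0, 1282, 1317, and 925 on 2% RPS and 1090.4, 1059, 1367, 1029, and 1329.7 on 5% RPS. On 10% RPS they were 1249.9, 1138, 1014, 913, and 806. All 5 libraries on 10% RPS lay below the 0% RPS mean and 3 lay below its lowest library, yet the groups overlapped. Group levels were 1285 ± 223 on 0% RPS, 1303 ± 272 on 2%, 1175 ± 161 on 5%, and 1024 ± 176 on 10% RPS (mean ± SD, n = 5 each). At 10% RPS Uchl1 was at 0.797 of the 0% RPS level (log2 fold change −0.33, SE 0.15, 95% interval −0.63 to −0.03), with an unadjusted p of 0.0330 and an adjusted p of 0.213 in DESeq2 and 0.253 in edgeR. This was the only one of the 7 genes with an unadjusted p under 0.05 against 0% RPS. At 2 and 5% RPS the log2 fold changes were 0.02 and −0.13 (SE 0.15 each, DESeq2 adjusted p 0.976 and 0.700).

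Elavl4 is the other gene found in nearly all enteric neurons. Its levels were 352 ± 29 on 0% RPS, 354 ± 70.6 on 2%, 332 ± 52.4 on 5%, and 315 ± 43.4 on 10% RPS (mean ± SD, n = 5 each). The ranges were 319 to 382 on 0% RPS, 233 to 414 on 2%, 244 to 377 on 5%, and 267 to 378 on 10% RPS. The lowest library of all was 2% RPS replicate 5, followed by 5% RPS replicate 4, and the group on 10% RPS had 3 libraries below the lowest control. The log2 fold changes were 0.01, −0.09, and −0.16 at 2, 5, and 10% RPS (SE 0.15, 0.14, and 0.15, DESeq2 adjusted p 0.990, 0.791, and 0.565).

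Ret, on which enteric neurons depend for survival signals, had levels of 808 ± 107 on 0% RPS, 795 ± 179 on 2%, 764 ± 71.1 on 5%, and 751 ± 102 on 10% RPS (mean ± SD, n = 5 each). Its highest library was 2% RPS replicate 1 with 1077 and its lowest 2% RPS replicate 5 with 634, so the widest spread was within 1 diet. The log2 fold changes were −0.02, −0.08, and −0.10 (SE 0.14 each, DESeq2 adjusted p 0.974, 0.798, and 0.708).

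Normalised counts of Nos1 were 1416, 1373, 1191, 1174, and 1450.4 in the 5 mice on 0% RPS. They were 1821, 1157, 1177, 1311, and 861 on 2% RPS and 1154, 1092, 1272, 991, and 1240.5 on 5% RPS. On 10% RPS they were 1356, 1209, 983, 949.6, and 874. All 5 libraries on 5% RPS and 4 of 5 on 10% RPS lay below the 0% RPS mean, and 3 in each lay below its lowest library. Group levels were 1321 ± 129.6 on 0% RPS, 1265 ± 351 on 2%, 1149.9 ± 114 on 5%, and 1074 ± 201 on 10% RPS (mean ± SD, n = 5 each). The log2 fold change was −0.20 at 5% RPS (SE 0.15, DESeq2 adjusted p = 0.525) and −0.30 at 10% RPS (SE 0.16, unadjusted p = 0.0551, DESeq2 adjusted p = 0.275, edgeR 0.302), and it was −0.06 at 2% RPS (adjusted p = 0.936).

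Normalised counts of Vip were 709.8, 1369, 711.8, 506, and 714 in the 5 mice on 0% RPS. They were 837, 721.1, 747.8, 680.4, and 512 on 2% RPS and 604, 650.4, 779.7, 440.1, and 559 on 5% RPS. On 10% RPS they were 596, 631, 601, 618, and 1049. Single libraries stood out, replicate 2 on 0% RPS and replicate 5 on 10% RPS, and the others lay between 440.1 and 837. Group levels were 802 ± 329 on 0% RPS, 699.6 ± 119.7 on 2%, 607 ± 124 on 5%, and 699 ± 196 on 10% RPS (mean ± SD, n = 5 each). The log2 fold changes were −0.20 at 2%, −0.40 at 5%, and −0.20 at 10% RPS (SE 0.22 each, DESeq2 adjusted p 0.832, 0.349, and 0.658). Without 0% RPS replicate 2 the change was 0.08 at 2% RPS and 0.08 at 10% RPS, so the sign at these levels rested on that library. At 5% RPS it was −0.12 without that library.

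Normalised counts of S100b were 218, 197, 152, 151, and 202 in the 5 mice on 0% RPS. They were 232, 217, 197, 188, and 178 on 2% RPS and 192, 156, 225, 166, and 236 on 5% RPS. On 10% RPS they were 176, 178, 139, 163, and 115. The 10% RPS libraries were all below the 0% RPS mean and 2 lay below its lowest library, while on 2% RPS 4 of 5 were above it. Group levels were 184 ± 30.7 on 0% RPS, 202 ± 21.9 on 2%, 195 ± 35.1 on 5%, and 154 ± 26.9 on 10% RPS (mean ± SD, n = 5 each). The log2 fold change was 0.14 at 2%, 0.09 at 5%, and −0.25 at 10% RPS (SE 0.15 each, DESeq2 adjusted p 0.825, 0.810, and 0.369).

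Sox10, which glia keep expressing in the adult, had levels of 260.4 ± 41.7 on 0% RPS, 286 ± 53.1 on 2%, 299 ± 46.2 on 5%, and 240.2 ± 41.6 on 10% RPS (mean ± SD, n = 5 each). Its ranges were 197 to 304, 216 to 354, 234 to 359, and 171 to 279.6 at 0, 2, 5, and 10% RPS, so all diets overlapped. The log2 fold changes were 0.13, 0.20, and −0.12 (SE 0.16 each, DESeq2 adjusted p 0.837, 0.529, and 0.723). S100b and Sox10 were thus the only members with higher means on 5% RPS than on 0% RPS, without passing the test.

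**Figure D2:**
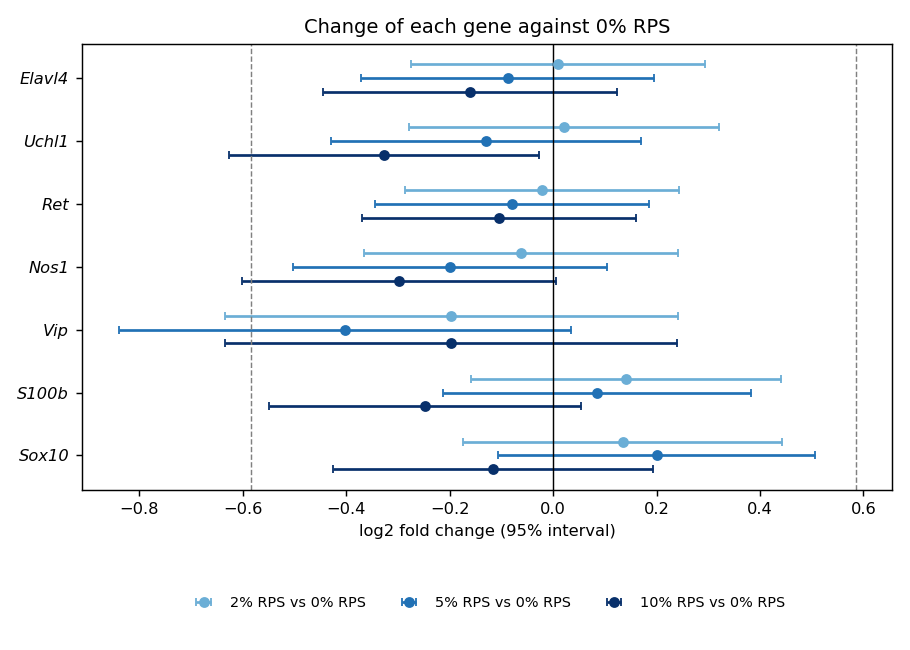
Log2 fold change of each gene against 0% RPS (horizontal axis) with its 95% interval, for 2, 5, and 10% RPS; dashed lines mark a 1.5-fold change in either direction. All 7 points for 10% RPS lie below 0, and only the interval of Uchl1 excludes 0.

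All 7 genes had a log2 fold change below 0 at 10% RPS, from −0.33 to −0.10 with a median of −0.20. Over all 12561 genes tested the median was 3.6e-05 and 49.9% were below 0. At 5% RPS 5 of 7 were below 0 (52.5% of all genes) with a median of −0.09, and at 2% RPS 3 of 7 (52.3%) with a median of 0.01. The 3 comparisons share the 0% RPS libraries, and the 7 genes vary together between mice, so their common sign is not 7 separate observations. Without the 3 libraries outside the run of label numbers, 5 of 7 were below 0 at 10% RPS with a median of −0.15. With the smooth muscle score as a covariate all 7 were below 0 with a median of −0.11, and with an epithelial score, added after the data were seen, all 7 with a median of −0.19.

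The starch levels were also compared with each other. DESeq2 called 0 of 7 genes in 5% against 2% RPS (0% of all genes), 0 in 10% against 2% RPS (0.0557%), and 0 in 10% against 5% RPS (0.00796%), and edgeR called 0 in each (0% of all genes). An unadjusted p under 0.05 was found for 0 of 7 (2.86% of all genes), 2 of 7 (9%), and 2 of 7 (4.11%) with DESeq2, and for the same counts with edgeR. Between 10% and 2% RPS these were S100b (log2 fold change −0.39, DESeq2 adjusted p = 0.379) and Uchl1 (−0.35, adjusted p = 0.442). Between 10% and 5% RPS they were S100b (−0.33) and Sox10 (−0.32), each with an adjusted p of 1.

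Over the 4 diets together the likelihood ratio test of DESeq2 called 0 of 7 genes (2.38% of all genes), with 0 of 7 at an unadjusted p under 0.05 (14.3% of all genes) and 0 called by edgeR (0.0566%). A linear trend over the percentage of RPS was called for 0 of 7 (4.29% of all genes) and also for 0 by edgeR (1.33%). At an unadjusted p under 0.05 the trend included 3 of 7 genes with DESeq2 and 2 with edgeR, against 19.1% of all genes. The slopes were −0.04 for Uchl1, −0.03 for Nos1, and −0.03 for S100b on the log2 scale per 1% of RPS, with DESeq2 adjusted p of 0.116, 0.203, and 0.256. When each library was left out in turn, the trend of Uchl1 passed in 2 of 20 fits (without 0% RPS replicate 3 and without 10% RPS replicate 1), with a lowest adjusted p of 0.0454.

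How the genes varied together between mice was then examined on log2(normalised count + 1) over the 20 libraries. The 4 neuronal genes Elavl4, Uchl1, Ret, and Nos1 varied together, with Pearson r of 0.70 to 0.92 in their 6 pairs (Spearman rho 0.66 to 0.88) and 0.69 to 0.92 with diet means removed. All 6 passed at an adjusted p of 0.05 (permutation test, 100000 resamples, 21 pairs). Uchl1 and Nos1 were closest, r = 0.92, rho = 0.88 (permutation adjusted p = 5.2e-05, from the smallest p that the permutations can give). Their r was 0.88 without the 2 libraries farthest from the median of Uchl1. The glial genes S100b and Sox10 had r = 0.70 and rho = 0.68 (permutation adjusted p = 0.00147 for r and 0.00318 for rho). Their r was 0.58 without the 2 libraries farthest from the median of S100b. S100b was closer to the neuronal Uchl1, r = 0.84, rho = 0.87 (permutation adjusted p = 5.2e-05 for both), and r = 0.76 without the 2 libraries farthest from the median of Uchl1. The difference between these correlations was not tested.

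Over all 20 libraries Vip stood apart from the rest. Its 6 pairs had r between −0.42 and 0.42 (rho −0.12 to 0.50), and 0 of 6 passed for r. For Elavl4 the rank correlation passed (rho = 0.50, permutation adjusted p = 0.0396) but r did not (0.36, permutation adjusted p = 0.148). That r was 0.03 without the 2 libraries farthest from the median of Elavl4, which kept both high Vip libraries. Without the 2 farthest from the median of Vip, 0% RPS replicate 2 and 10% RPS replicate 5, r rose from 0.06 to 0.49 with S100b. With Sox10 it rose from −0.42 to 0.20. The pairs with Elavl4, Uchl1, Ret, and Nos1 were not computed without both of these libraries. The ratio of Vip to Nos1 normalised counts was 0.997 in 0% RPS replicate 2 and 1.20 in 10% RPS replicate 5, and between 0.431 and 0.651 in the other 18 libraries. In all, 12 of the 21 pairs passed.

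**Figure D3:**
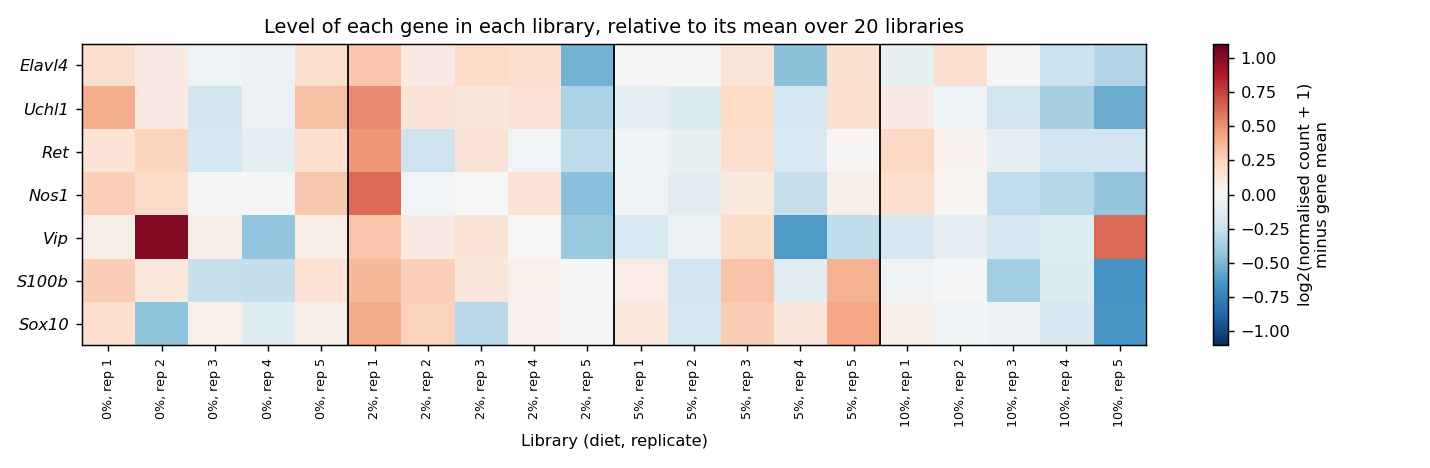
Level of each gene (rows) in each of the 20 libraries (columns, by diet and replicate), as log2(normalised count + 1) minus the mean of that gene; red is above and blue below the mean. Elavl4, Uchl1, Ret, and Nos1 share their high library (2% RPS replicate 1) and a low one (2% RPS replicate 5), while Vip stands alone in 0% RPS replicate 2 and 10% RPS replicate 5.

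The 3 libraries outside the run of label numbers were low for the neuronal genes. For Elavl4, Uchl1, Ret, and Nos1 they held ranks 1 to 4 from the lowest of 20. For S100b and Sox10, 10% RPS replicate 5 was the lowest of all, and for Vip the same library was rank 19. With these 3 libraries omitted, the log2 fold changes at 10% RPS were −0.18 for Uchl1, −0.16 for Nos1, −0.04 for Elavl4, 0.0012 for Ret, −0.15 for S100b, 0.02 for Sox10, and −0.40 for Vip. Since 2 of the 3 are 10% RPS libraries, their part in the lower means at this level was measured by this omission alone, and what the label numbers mark is not stated.

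Because a segment of gut wall can hold more or less muscle, and nerve plexuses lie in and beside it, the genes were set against the smooth muscle score. Ret had the highest correlation, r = 0.75, rho = 0.77 (permutation adjusted p over 7 genes 0.00133 for r and 0.000595 for rho), with r = 0.70 without the 2 libraries of most extreme score and 0.75 within diets. Nos1 followed with r = 0.69 and rho = 0.76 (permutation adjusted p 0.00339 and 0.000595), and r = 0.65 without those 2 and 0.68 within diets. Uchl1 had r = 0.62 and rho = 0.72 (permutation adjusted p 0.00614 and 0.000980), and 0.66 without those 2 and 0.64 within diets. Elavl4 had r = 0.60 and rho = 0.57 (permutation adjusted p 0.00731 and 0.0174), and 0.57 and 0.58 in the same checks. These 4 neuronal genes were thus higher in the pieces with more muscle RNA.

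Vip had r = 0.66 and rho = 0.51 (permutation adjusted p 0.00483 and 0.0250), but r = 0.39 without the 2 extreme libraries, and without 0% RPS replicate 2 alone r was 0.46 (permutation adjusted p = 0.0647), so its relation rested on that library. S100b had r = 0.39 and rho = 0.52 (permutation adjusted p 0.101 and 0.0250), r = 0.44 without those 2, and r = 0.46 within diets (permutation adjusted p = 0.0468). For Sox10 no relation was detected, with r = 0.00 and rho = 0.23 (permutation adjusted p 0.986 and 0.339), and r = 0.30 and 0.05 in the same checks. The score itself had a mean of 0.13 ± 0.43 on 0% RPS, 0.05 ± 0.38 on 2%, −0.13 ± 0.26 on 5%, and −0.06 ± 0.28 on 10% RPS (SD, n = 5). With the score as a covariate, the log2 fold changes at 10% RPS were −0.24 for Uchl1, −0.21 for Nos1, −0.18 for S100b, −0.01 for Ret, and −0.01 for Vip.

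**Figure D4:**
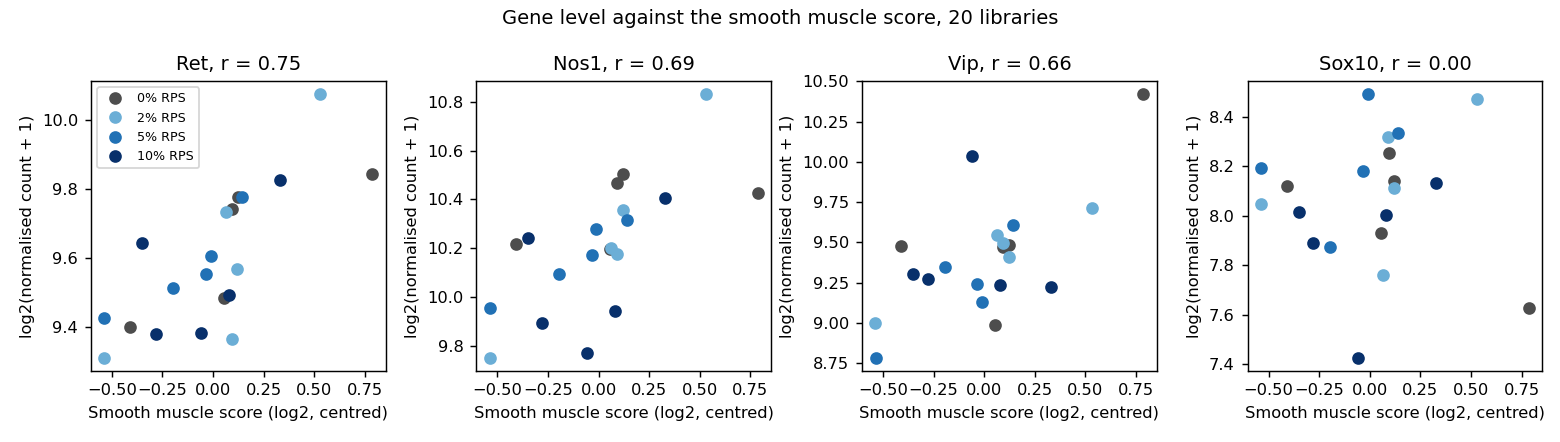
Log2(normalised count + 1) of Ret, Nos1, Vip, and Sox10 (vertical axes) against the smooth muscle score (horizontal axes, log2 scale, centred), 1 point per library and coloured by diet. Ret and Nos1 rise with the score (r = 0.75 and 0.69), Vip is pulled up by 0% RPS replicate 2 at the right, and Sox10 has r = 0.00.

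For each gene, the 3 genes of the table most like it over the 20 libraries were found by Pearson r among the 11965 genes whose mean normalised count reached 50. These are descriptions of shared variation between the same libraries. Uchl1 was most like Eef1a2 (r = 0.98), a translation factor of neurons and muscle, Stmn2 (0.96), a microtubule regulator of neurons, and Snap25 (0.96), a protein of synaptic vesicle fusion. Nos1 was most like Kif5a (0.95), a neuronal kinesin, Ndrg4 (0.95), and AW551984 (0.94). Elavl4 was most like Fez1 (0.89), AW551984 (0.87), and Pirt (0.86). Ret was most like Kif5c (0.91), another kinesin heavy chain, Gng2 (0.90), and Fnbp1 (0.90).

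S100b was most like Slc18a3 (0.87), the vesicular acetylcholine transporter of cholinergic neurons, Prph (0.86), the intermediate filament of peripheral neurons, and Gfra1 (0.86), the coreceptor of Ret. Sox10 was most like Tmprss5 (0.89), Cbln2 (0.86), and Gfra1 (0.83). Vip was most like C4b (0.81), a complement component, Fn1 (0.80), fibronectin, and Mrc1 (0.79), a macrophage receptor, with Spearman rho of only 0.66, 0.58, and 0.57. For the genes nearest to Uchl1, rho was 0.94 to 0.97.

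The other genes of the enteric nervous system were examined in 5 lists: neuron structure and identity (21 genes tested), transmitters and peptides (16), glia (11), Ret ligands and coreceptors (10), and receptors of enteric signals (17). Together they held 73 different genes, the 7 above included. The lists were chosen with earlier results of these data known, so the shares called are descriptions and not a test of the lists. DESeq2 called 0 of 73 at 2% RPS, 2 at 5% RPS (both lower), and 3 at 10% RPS (1 higher, 2 lower), while edgeR called 0, 0, and 1. Of all genes DESeq2 called 0.0239%, 0.438%, and 0.9% in these comparisons and edgeR 0%, 0.0566%, and 0.323%. At 2% RPS 2 of the 73 had an unadjusted p under 0.05 with each tool (8.7% of all genes with DESeq2). At 10% RPS 59 of the 73 had a log2 fold change below 0 (49.9% of all genes), with a median of −0.20, and 17 of the 19 with an unadjusted p under 0.05 (18.8% of all genes) were lower. At 5% RPS 53 of 73 were below 0 with a median of −0.09, and at 2% RPS 29 of 73 with a median of 0.02. The count at 2% RPS rested on single libraries, being 51 (median −0.05) without 2% RPS replicate 1, 46 (median −0.02) without 0% RPS replicate 3, and 21 (median 0.10) without 2% RPS replicate 5. Without the 3 libraries outside the run of label numbers, 52 of 73 were below 0 at 10% RPS with a median of −0.09, and with the smooth muscle score as a covariate 55 with a median of −0.13. With that covariate 38 of 73 were below 0 at 5% RPS with a median of −0.0031.

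Among the structural and identity genes of neurons, 20 of 21 were below 0 at 10% RPS, with a median of −0.21, 0 were called, and 6 had an unadjusted p under 0.05 (18.8% of all genes), all lower, with DESeq2 and edgeR alike. The highest of this list per kilobase were Vamp2, a synaptic vesicle protein, with 3083 normalised counts per kilobase (mean over 20 libraries), L1cam, an adhesion molecule of axons, with 751, and Uchl1. Of the transmitters and peptides 10 of 16 were below 0, with a median of −0.07, 0 called, and 0 at an unadjusted p under 0.05 with either tool. Sst was highest with 1091 per kilobase, before Gal with 762 and Calb2 with 562, and Sst is also made by endocrine cells of the epithelium. The Ret list had 8 of 10 below 0, a median of −0.19, 0 called by either tool, and 2 with an unadjusted p under 0.05 (18.8% of all genes), with Ret, Gfra2 (107 per kilobase), and Edn3 (98.1) highest.

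**Figure D5:**
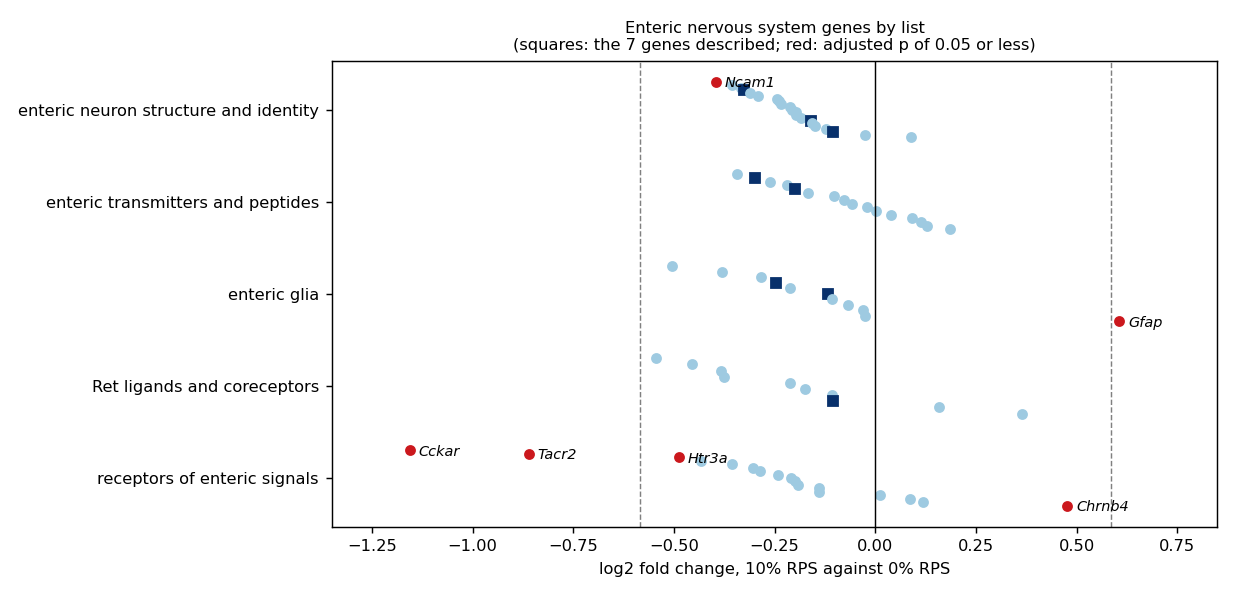
Log2 fold change at 10% against 0% RPS (horizontal axis) of every tested gene of the 5 enteric lists; squares are the 7 genes described, red marks an adjusted p of 0.05 or less, and dashed lines a 1.5-fold change. Most points lie left of 0, and Cckar, Tacr2, and Gfap alone pass both thresholds.

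In the glial list 10 of 11 genes were below 0 at 10% RPS, with a median of −0.12. In DESeq2 4 of the 11 had an unadjusted p under 0.05 (18.8% of all genes), and 3 of these were lower. The 1 gene above 0 was called. Gfap, the intermediate filament of glia, had 217 to 319.7 normalised counts on 0% RPS, 252 to 315 on 2%, 313 to 363 on 5%, and 269 to 484 on 10% RPS. It was 1.52-fold higher at 10% RPS (log2 fold change 0.61, SE 0.16, DESeq2 adjusted p = 0.00797), just past the fold threshold, and edgeR did not call it (adjusted p = 0.0569). The group on 10% RPS overlapped the control, and the call was lost without any of 0% RPS replicates 3, 4, or 5 or 10% RPS replicates 1, 3, or 5. S100b and Sox10 had log2 fold changes of −0.25 and −0.12 in the same comparison, so the 3 glial markers did not share a sign, and the difference between them was not tested. The highest glial genes per kilobase were Erbb3 with 1784, which the epithelium also expresses, Entpd2 with 378, and Gpm6b with 141.

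Both receptors called lower respond to signals of the gut's nerves or endocrine cells. Tacr2, a tachykinin receptor of intestinal muscle, had 231 to 509 normalised counts on 0% RPS, 163 to 279 on 2%, 148 to 214 on 5%, and 133 to 239 on 10% RPS. It fell to 0.597 of the control at 5% RPS (log2 fold change −0.74, SE 0.21, DESeq2 adjusted p = 0.0382) and 0.551 at 10% RPS (−0.86, SE 0.21, adjusted p = 0.00543), and edgeR did not call it (adjusted p 0.138 and 0.0505). Cckar, a cholecystokinin receptor, had 215 to 525.9 on 0% RPS and 90.8 to 185 on 10% RPS, with no overlap (2.52% of all genes did not overlap between these diets). It fell to 0.510 at 5% RPS (−0.97, SE 0.25, adjusted p = 0.0148, edgeR 0.115) and 0.449 at 10% RPS (−1.16, SE 0.25, adjusted p = 0.000895, edgeR 0.0314). The highest library of both genes was 0% RPS replicate 2, and at 10% RPS both stayed called with any single library left out. At 5% RPS neither was called without 0% RPS replicate 4, 2% RPS replicate 1 or 5, or 5% RPS replicate 2, and Tacr2 was not called without 0% RPS replicate 2 or 5 or 5% RPS replicate 1, 3, 4, or 5. Tacr2 was not called at 10% RPS without the 3 libraries outside the run of label numbers or without 0% RPS replicate 2 and 10% RPS replicate 5 together. With the epithelial score as a covariate 0 of the 73 genes were called at 5 and at 10% RPS.

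In the receptor list 13 of 17 genes were below 0 at 10% RPS, with a median of −0.21. In DESeq2 7 of the 17 had an unadjusted p under 0.05 (18.8% of all genes), and 6 of these were lower. The highest genes of this list per kilobase were Vipr1, a receptor of VIP that the epithelium also expresses, with 1019, and P2ry1, a purine receptor, with 263. Gucy1b1, a subunit of the nitric oxide receptor guanylate cyclase, followed with 260.03. Chrnb4, a nicotinic receptor subunit, is named after its values were seen. It was 1.39-fold higher at 10% RPS (log2 fold change 0.48, SE 0.08, DESeq2 adjusted p = 1.2e-06, edgeR 0.00767), under the fold threshold, with 661 to 803 normalised counts against 448 to 574 on 0% RPS.

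Over the percentage of RPS, 8 of the 73 genes had a trend with DESeq2 (2 higher, 6 lower) and 5 with edgeR. The shares of all genes were 4.29% and 1.33%, and since the lists were chosen with earlier results known, this is no test of the lists. The 8 genes included Gfap and Chrnb4, rising, and Cckar, Tacr2, Htr3a, Ncam1, and Ngfr, falling, of which the last 3 are named after their values were seen. Htr3a is a serotonin-gated channel subunit, Ncam1 a neural adhesion molecule, and Ngfr the low-affinity neurotrophin receptor. Without the 3 libraries outside the run of label numbers, 4 were called, namely Cckar, Chrnb4, Gfap, and Tacr2. The count was 3 without 10% RPS replicate 5 (Cckar, Chrnb4, and Gfap), 13 without 0% RPS replicate 3, 13 without 10% RPS replicate 1, and 6 to 11 without any other single library. With the epithelial score as a covariate it was 3, namely Cckar, Chrnb4, and Ngfr.

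Markers of other cell types were examined in the same libraries. At 10% RPS 11 of 12 epithelial markers and 0 of 10 smooth muscle markers had a log2 fold change above 0, with medians of 0.14 and −0.20, and none was called. All 4 markers of interstitial cells of Cajal and PDGFRA cells, the pacemaker and relay cells beside the nerves, were below 0 with a median of −0.28 and none called. Of 9 enteroendocrine genes 1 was called, Insl5 (lower, log2 fold change −1.61, DESeq2 adjusted p = 0.0258), with 458 normalised counts in 0% RPS replicate 2 and 34.2 to 77.9 in the other 19 libraries. The 2 measured markers of extrinsic nerve myelin were both above 0, with a median of 0.28, and 0 called. Of 5 immune cell markers 4 were below 0, with a median of −0.07 and 0 called. Of 6 measured markers of endothelium and fat 3 were below 0, with 0 called. Their log2 fold changes ran from −0.28 to 1.25, with a median of 0.37. Their summed normalised count on 10% RPS had a median of 4368 and reached 14627 in 1 library. The part of these values in the lower neuronal values was not tested beyond the covariate fits given.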

How the data were processed

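RNA was extracted from the proximal colon and stranded mRNA libraries were sequenced as single-end reads. Per the methods of the study and the labels, the authors removed low-quality bases and ambiguous reads, mapped the rest to the mouse genome GRCm39 in CLC Genomics Workbench, and deposited whole-number counts per Ensembl gene. The annotation, the use of strand, and the rule that left 12701 genes in the table are not given in the sources used here. Values deposited by the authors were not normalised. Other tissues were not analysed here.

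Libraries were grouped by the diet in their labels and numbered within a diet in order. Symbols were matched through GENCODE M39 (12682 of 12701 identifiers). DESeq2 (1.42.0, R 4.3.3), the study's tool, was fitted on all 20 libraries with diet as the only term. Genes were called at a change of at least 1.5-fold with a p, adjusted by Benjamini-Hochberg, no higher than 0.05. The test of the 4 diets and the trend had no fold threshold. edgeR (4.0.16, quasi-likelihood, TMM, 12366 genes kept) was the alternative. The script was tested on simulated data. Correlations used 100000 permutations. P-values of the diet tests weigh differences between diets against the spread between mice. Those of the correlations come from shuffling the 20 libraries without regard to diet. Total counts ranged from 20581013 to 35083751, with a median of 26354926.

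Alternatives were TMM factors, a filter of at least 10 counts in 5 libraries, independent or Cook filtering off, no fold threshold, only the 2 diets compared, a smooth muscle covariate, omission of 3 libraries, omission of each library in turn, and for the correlations a pseudocount of 0.1 and diet means removed. An epithelial covariate and the joint omission of 2 libraries were chosen after seeing the data. Named were the 8 listed genes, every list gene called against 0% RPS, the 3 genes highest per kilobase in each enteric list, and the 3 most similar genes of each listed gene. The listed genes and the gene lists were chosen with earlier results of these data known. Some results are not reported here.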

Additional observations from a re-analysis of the deposited data

Results flagged for a closer look

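Among 28 groups of 5 libraries (7 genes in 4 diets), 2 had a library far from the others by Dixon's test, where chance flags about 1 in 20. Both concerned Vip. Replicate 2 on 0% RPS had 1369 normalised counts, against 714 in the next library, a gap of 0.758 of the range of its group. Replicate 5 on 10% RPS had 1049, against 631 in the next, a gap of 0.922 of the range, where the limit for 5 libraries is 0.71. In the first library the smooth muscle score was the highest of 20, 0.79, and in the second it was −0.06.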

How the results depend on the processing

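No paired analysis was possible because the labels give the diets no shared replicate numbers. DESeq2 called 0 of the 7 genes against 0% RPS under every alternative run. Under settings other than omission of 1 library, 282 log2 fold changes of single genes kept their direction and side of the threshold and 12 changed sign. With the smooth muscle score as a covariate Ret was 0.0056 at 2% and 0.0455 at 5% RPS and the slope of Vip was 0.0021. Without the 3 libraries outside the run of label numbers Ret was 0.0503 at 2% and 0.0012 at 10% RPS, Nos1 0.0493 at 2% RPS, Sox10 0.0225 at 10% RPS, and the slope of Sox10 0.0032. With the epithelial score Ret was 0.0357 at 2% and Elavl4 0.0264 at 5% RPS. Without 0% RPS replicate 2 and 10% RPS replicate 5 together Ret was 0.0292 and Vip 0.0843 at 2% RPS. The cause was not tested.

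Of the genes of the 5 lists, 2 were called at 5% RPS, against 0 with edgeR, 1 with the smooth muscle score, 0 with the epithelial score, and 1 without the 2 libraries together. At 10% RPS 3 were called, against 1 with edgeR, 0 with the epithelial score, and 6 without a fold threshold. The correlation of Sox10 with muscle was −0.0023 with TMM factors, and that of S100b passed with diet means removed (0.46).

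Leaving out each library in turn gave 0 to 2 list genes at 5% RPS and 2 to 4 at 10% RPS, and 0 to 1 of the 7 genes with a trend. At 2% RPS the log2 fold change then ranged from −0.0526 to 0.13 for Elavl4, −0.0909 to 0.12 for Uchl1, −0.15 to 0.0503 for Ret, −0.23 to 0.0493 for Nos1, and −0.32 to 0.0844 for Vip. At 5% RPS it was −0.14 to 0.0056 for Elavl4 and at 10% RPS −0.39 to 0.0833 for Vip. The slope ranged from −0.0433 to −0.0281 for Uchl1 and −0.0387 to 0.0036 for Vip. The correlation with muscle ranged from 0.46 to 0.74 for Vip, where it did not pass without 0% RPS replicate 2, and from −0.15 to 0.29 for Sox10. With 5 mice a diet and standard errors of 0.14 to 0.22, changes inside the 95% intervals given could have been missed. A call needed more than an interval that excluded 0. Uchl1 at 10% RPS had such an interval and was not called.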
